A study of Mus musculus with 24 samples.

Results

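Genes of Wnt signalling were followed through a light and dark cycle in the mouse retinal pigment epithelium (RPE), the pigmented layer that supports the photoreceptors. They were the R-spondin Rspo2, the ligands Wnt5a and Wnt5b, the secreted antagonists Sfrp1, Sfrp5 and Dkk3, and the target genes Axin2, Nkd1, Lef1 and Rnf43. These 10 of the 54532 genes in the table were taken by name, and were chosen by values in these same libraries, namely the lower level of Rspo2 at midday (5 and 6 h) and the high level of Wnt5b at 15 h. RNA came from wild-type 129S1/SvlmJ mice that all carried the Leu450 background of Rpe65, were fed a standard diet and lived under 12 h of light a day, with lights on at 7 am. Age and sex are not given in the sources used here. At each of 8 times (0, 1, 3, 5, 6, 9, 15 and 16 h past lights on) 3 mice gave total RNA, 24 mice in total, to study circadian control of autophagy and lysosomal genes. The times from 1 to 9 h lay in the light, and 15 and 16 h lay in the dark.

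Wnt proteins are secreted lipid-modified ligands that bind Frizzled receptors, and together with the co-receptors Lrp5 and Lrp6 they stabilise beta-catenin, which then acts with TCF/LEF factors on target genes. R-spondins bind Lgr receptors and remove the ubiquitin ligases Rnf43 and Znrf3 from the cell surface, so that more Frizzled remains there. Sfrp proteins bind Wnts outside the cell, and several target genes, Axin2, Nkd1 and Rnf43 among them, are themselves brakes on the pathway. In the developing eye this pathway is known for its part in specifying the RPE and the peripheral eye cup.

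Members were tested at the times that the choice of genes had not used, 1, 3, 9 and 16 h. The 250 bases before RefSeq transcription starts (GRCm38.p6) were searched on both strands for TCF/LEF letters (CTTTGAA, the variant CTTTGAT, the variant CTTTGTA or the variant CTTTGTT), the E-box CACGTG of clock factors and the D-box TTATGTAA of PAR bZIP factors. RefSeq windows were found for 6 of the 10 members, Wnt5b, Axin2, Nkd1, Sfrp5, Lef1 and Rnf43, with 12 windows in all. The windows shown are the 3 that held any of these letters, in capitals, and none of the 3 overlaps an annotated exon. The first lies before Lef1 start 4, with starts numbered in the order of the RefSeq table, chr3:131156044-131156293 on the plus strand. It holds TACAAAG, which is CTTTGTA on the opposite strand, beginning 147 bases before the start, and CACGTG beginning 79 bases before it. The second lies before Wnt5b start 2, chr6:119467212-119467461 on the minus strand, and holds the D-box as TTACATAA, beginning 119 bases before the start. The third lies before Wnt5b start 3, chr6:119449387-119449636 on the minus strand, with CTTTGAT beginning 71 bases before the start. Each is written 5′ to 3′ on the gene's own strand.
Lef1 start 4: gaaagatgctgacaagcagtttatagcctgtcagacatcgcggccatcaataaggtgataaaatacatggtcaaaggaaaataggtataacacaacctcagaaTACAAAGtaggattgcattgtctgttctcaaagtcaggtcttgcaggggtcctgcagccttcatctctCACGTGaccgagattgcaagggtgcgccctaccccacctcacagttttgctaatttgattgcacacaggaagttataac
Wnt5b start 2: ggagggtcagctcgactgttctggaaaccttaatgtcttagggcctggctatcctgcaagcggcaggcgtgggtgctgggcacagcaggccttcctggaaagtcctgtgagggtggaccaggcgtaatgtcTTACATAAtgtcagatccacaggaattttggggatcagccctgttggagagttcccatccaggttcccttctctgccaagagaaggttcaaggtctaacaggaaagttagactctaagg
Wnt5b start 3: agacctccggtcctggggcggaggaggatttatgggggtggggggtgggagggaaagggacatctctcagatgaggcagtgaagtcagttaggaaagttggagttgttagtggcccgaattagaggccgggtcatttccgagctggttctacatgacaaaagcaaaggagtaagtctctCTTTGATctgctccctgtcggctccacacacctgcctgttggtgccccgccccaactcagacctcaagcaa

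Of all 32851 windows of the same length, 14.8% held at least 1 of the 4 TCF/LEF letters, 6.02% the E-box and 0.819% the D-box, and 2 of the 12 member windows held TCF/LEF letters. A match describes letters and does not show a site that is used.

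Depth was alike over the libraries, at 14073440 to 17492470 counted reads. Markers of the RPE were abundant, with a summed level of 34260 to 49520 CPM (reads scaled to a common library size) over 8 genes in 22 libraries, and all 8 were detected. Markers of rods (417 to 3870 CPM summed over 10 genes), choroid endothelium (364 to 984 CPM over 10 genes) and fibroblasts with mural cells (1771 to 2648 CPM over 10 genes) were present too. The samples are therefore bulk tissue, in which fewer cells of a type and less RNA per cell cannot be told apart. Libraries of 2 mice stood apart from the rest, mouse 3 of 15 h and mouse 3 of 6 h. Along principal component 1 of log2 CPM (43.2% of the variance) their scores were 140 and 41.4, with the other 22 between -19.3 and -1.13. Their difference from the other mice of their time varied with gene length (Spearman's rho of the log2 ratio with length -0.376 for 15 h and -0.409 for 6 h, across 18065 genes, which are not independent replicates). Summed RPE markers were at 112000 CPM in mouse 3 of 15 h and 53100 CPM in mouse 3 of 6 h, above all 22 others. In mouse 3 of 15 h rod (2510 CPM), endothelial (536 CPM) and lens with ciliary body markers (127 CPM) lay within the range of the 22. Those of fibroblasts with mural cells (1710 CPM) and of Muller glia with inner retina (1380 CPM) lay below it. Those of melanocytes with Schwann cells (2660 CPM), macrophages with mast cells (1180 CPM) and skeletal muscle (1780 CPM) lay above it. In mouse 3 of 6 h those of macrophages with mast cells (1090 CPM) also lay above it. The part of tissue content in the member values of these libraries was not tested. Tests of the members are given for all 24 libraries and for the 22 without these mice, and levels per length for the 22.

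Rspo2, the R-spondin with the highest level per length here, had the widest range of time means of the members in the 22 libraries, 2.66-fold. Over all 24 libraries Wnt5b had a wider one (2.95-fold). The Rspo2 range runs from 5 h to 0 h and the Wnt5b range from 0 h to 15 h. Those times served to choose these genes, so their rank by range follows from the choice and is only a description. Rspo2 was measured at 16.3, 16.3 and 20.8 CPM at 0 h, at 15.05, 10.6 and 11.9 CPM at 1 h, at 10.99, 9.58 and 12.2 CPM at 3 h, and at 5.88, 7.67 and 6.52 CPM at 5 h. At the later times it was at 8.19, 10.6 and 7.94 CPM (6 h), 6.19, 9.18 and 7.89 CPM (9 h), 17.6, 14.7 and 9.73 CPM (15 h), and 13.3, 14.2 and 17.6 CPM (16 h). All mice of 5, 6 and 9 h lay below all mice of 0 h, and in the dark 5 of 6 mice (13.3 to 17.6 CPM) lay above every mouse of 1 to 9 h but mouse 1 of 1 h. Rod markers, too, were highest at 0 h, at a summed 2479 to 3870 CPM, and their part in the 0 h level was not tested. The mean at midday (5 and 6 h) was 0.439 times that at 0 h over 24 libraries and 0.437 times over 22, values that chose the gene and are given without a test. In order of mean in the 22 libraries the times ran 0 h (17.8 CPM), 15 h (16.1 CPM), 16 h (15.0 CPM), 1 h (12.5 CPM), 3 h (10.9 CPM), 6 h (9.41 CPM), 9 h (7.75 CPM) and 5 h (6.69 CPM). Of the 7 neighbouring pairs in that order only 16 and 1 h differed by more than the larger SD of the pair.

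Rspo2 fell from 1 h to 9 h and was higher at 16 h than over 1, 3 and 9 h in the 22 libraries, but passed neither test in the 24. Its level fell by 0.69 on the log2 scale from 1 h to 9 h (SE 0.173, edgeR quasi-likelihood test, adjusted p = 0.0351 in 22 libraries), and all 3 mice at 9 h lay below all 3 at 1 h. At 16 h it was 0.56 higher on the log2 scale than the mean of 1, 3 and 9 h (SE 0.135, adjusted p = 0.0105), with 16 h at 13.3 to 17.6 CPM and the light-phase mice at 6.19 to 15.05 CPM, so the groups overlapped. The F test over 1, 3, 9 and 16 h gave an adjusted p of 0.00473. With all 24 libraries the differences were nearly the same, -0.69 (SE 0.214, adjusted p = 0.439) and 0.56 (SE 0.168, adjusted p = 0.169), and the F test gave an adjusted p of 0.157. In the 22 libraries the F test kept its call in all 27 alternatives (adjusted p up to 0.0316). The fall from 1 to 9 h was lost with limma-voom and without mouse 1 or 3 of 1 h or mouse 1 or 3 of 9 h (adjusted p up to 0.187), and the 16 h difference was lost without mouse 3 of 16 h (adjusted p = 0.142). Summed RPE markers were at 34490 to 42160 CPM at 1 h, 37700 to 42260 CPM at 9 h and 41250 to 49520 CPM at 16 h. Summed rod markers were at 657 to 1585 CPM, 449 to 1029 CPM and 488 to 1516 CPM at those times. Summed endothelial markers were at 364 to 489 CPM at 16 h, below the 550 to 984 CPM of 1, 3 and 9 h. The part of these markers in the Rspo2 results was not tested.

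**Figure D1:**
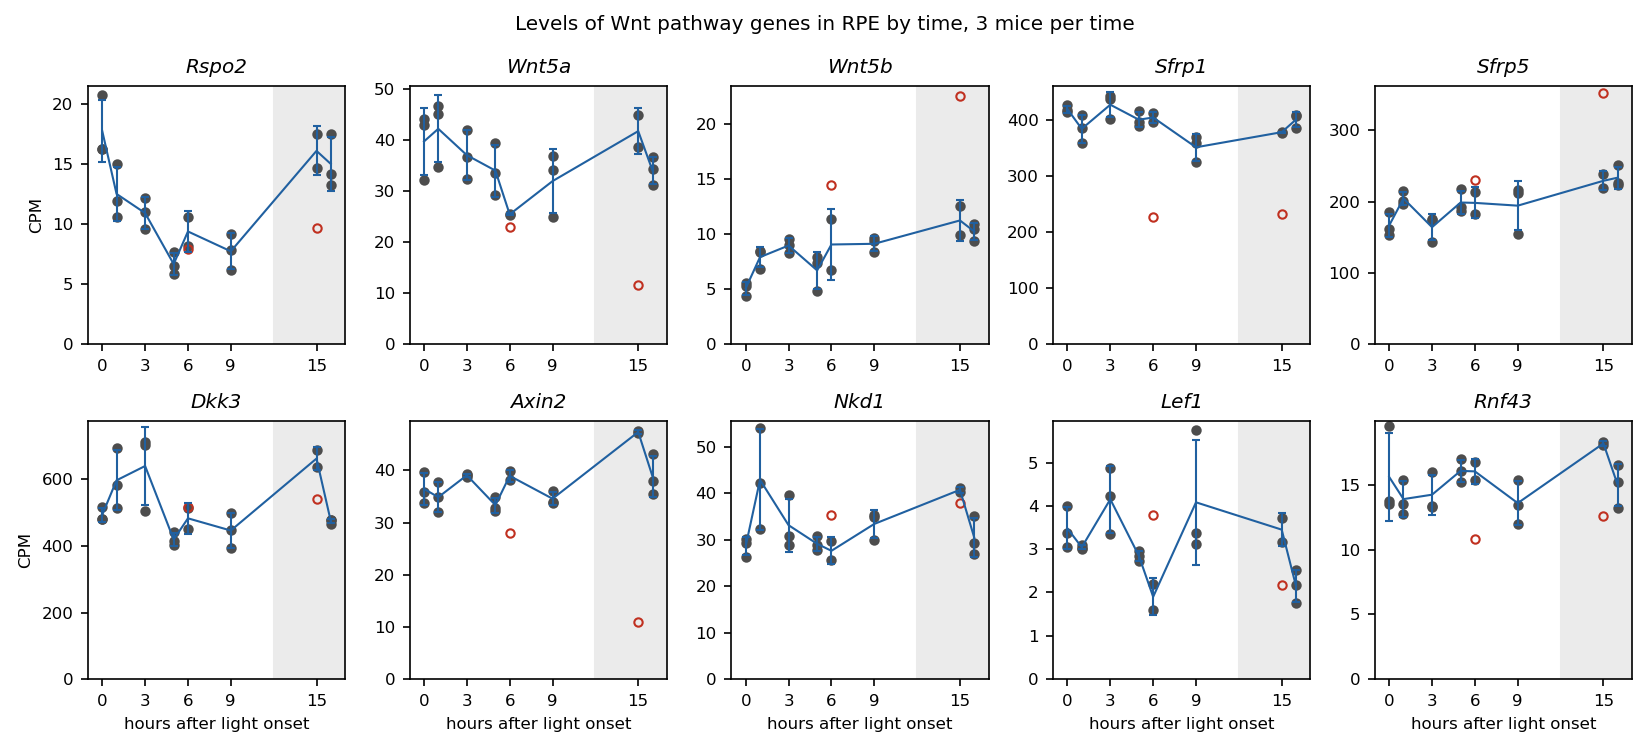
Level of each of the 10 genes (CPM, scaled by the trimmed mean of M-values) against hours after light onset. Grey dots are mice, open red circles are mouse 3 of 6 h and mouse 3 of 15 h, the blue line and bars are the mean ± SD of the 22 other libraries, and the shaded band is the dark phase; Rspo2 was lowest at 5 h (6.69 CPM) and highest at 0 h (17.8 CPM).

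Wnt5b, a ligand that acts mainly outside the beta-catenin branch, was lowest at light onset and highest at 15 h. The mice stood at 5.28, 5.54 and 4.41 CPM at 0 h, 8.38, 8.46 and 6.86 CPM at 1 h, 8.99, 8.30 and 9.57 CPM at 3 h, and 7.90, 4.83 and 7.36 CPM at 5 h. From 6 h on they stood at 6.78, 11.3 and 14.5 CPM, at 9.63, 8.35 and 9.36 CPM (9 h), at 12.5, 9.93 and 22.5 CPM (15 h) and at 10.9, 9.32 and 10.5 CPM (16 h). Its 2 highest values, 22.5 and 14.5 CPM, were in the libraries that stood apart. The mean at 15 h was 1.78 times that of the other 7 times with them and 1.39 times without them, and without them mouse 1 of 15 h lay above and mouse 2 within the values of the other times, which ran from 4.41 to 11.3 CPM. Those 15 h values chose the gene and carry no test. At the times not used for the choice, Wnt5b at 16 h differed from 1, 3 and 9 h by 0.24 on the log2 scale (SE 0.216, adjusted p = 0.822 in 24 libraries and 0.345 in 22), and 9 h from 1 h by 0.20 (adjusted p = 1 and 0.711). In order of mean in 22 libraries, 15 h (11.2 CPM), 16 h (10.2 CPM), 9 h (9.11 CPM), 6 h (9.05 CPM), 3 h (8.96 CPM), 1 h (7.90 CPM), 5 h (6.70 CPM) and 0 h (5.08 CPM), 5 of the 7 neighbouring pairs lay within the larger SD of the pair.

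Wnt5a, the ligand best known for planar polarity and calcium signalling, was the more abundant of the pair, at a median of 4.56 CPM per kb against 3.17 CPM per kb for Wnt5b in the 22 libraries. Across the other 17 Wnt genes only Wnt9a was near them (4.09 CPM per kb), and Wnt6 followed at 1.35 CPM per kb. Wnt5a was measured at 43.0, 32.2 and 44.1 CPM at 0 h, at 46.8, 45.2 and 34.8 CPM at 1 h, at 36.9, 24.99 and 34.1 CPM at 9 h, and at 31.2, 36.7 and 34.3 CPM at 16 h. Its lowest time mean was at 6 h (25.5 CPM in 22 libraries) and its highest at 1 h (42.2 CPM), and the mice of 1, 3, 9 and 16 h overlapped. Mouse 3 of 15 h was at 11.7 CPM against 38.6 and 44.9 CPM in the other mice. The differences of 9 h from 1 h (-0.41 on the log2 scale, SE 0.154) and of 16 h from the light phase (-0.12, SE 0.127) did not pass (adjusted p = 0.218 and 0.628 in 22 libraries, 1 and 0.951 in 24). Gm2670, on the other strand, overlaps 4.58% of the exonic bases of Wnt5a, and the libraries do not mark strand.

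Among the antagonists, Sfrp5, a relative of Sfrp1 that also binds Wnts, was higher at 16 h in the 22 libraries. It was measured at 216, 197 and 201 CPM at 1 h, at 175, 174 and 143 CPM at 3 h, at 212, 155 and 217 CPM at 9 h, and at 252, 224 and 226 CPM at 16 h. Every mouse at 16 h lay above every mouse of 1, 3 and 9 h. The difference was 0.32 on the log2 scale (SE 0.0893, adjusted p = 0.0265 in 22 libraries, 0.346 in 24), and was lost without mouse 1 or mouse 3 of 16 h (adjusted p up to 0.141). The F test gave an adjusted p of 0.0271 in 22 libraries (0.545 in 24) and was lost without mouse 3 of 3 h and without either mouse 1 or mouse 3 of 16 h (up to 0.0885). At the times used for the choice, Sfrp5 was at 162, 185 and 153 CPM at 0 h and at 220, 239 and 352 CPM at 15 h, where the value of 352 CPM was in the library that stood apart. Summed RPE markers were at 34260 to 42260 CPM over 1, 3 and 9 h beside 41250 to 49520 CPM at 16 h. Summed endothelial markers were at 550 to 984 CPM over 1, 3 and 9 h beside 364 to 489 CPM at 16 h. The part of these markers in the Sfrp5 result was not tested.

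Dkk3, a divergent member of the Dickkopf family of secreted proteins, varied over 1, 3, 9 and 16 h in the 22 libraries. It was measured at 584, 693 and 514 CPM at 1 h, at 713, 505 and 703 CPM at 3 h, at 393, 449 and 498 CPM at 9 h, and at 467, 479 and 478 CPM at 16 h. All mice at 9 h lay below all mice at 1 h, and the mice of 1 h and 3 h spread widely. The F test gave an adjusted p of 0.00836 in 22 libraries, kept in all 27 alternatives (up to 0.0255), and 0.153 in 24. Neither single difference passed in the 22 libraries: 9 h from 1 h was -0.42 on the log2 scale (SE 0.113, adjusted p = 0.0586, 0.472 in 24), and 16 h from the light phase was -0.23 (SE 0.0937, adjusted p = 0.134, 0.529 in 24). Of the 27 alternatives on the 22 libraries, 5 called the 9 h difference. DESeq2 called the F test in 24 libraries (adjusted p = 0.0118) and the 9 h difference in 22 (adjusted p = 0.00853). Summed markers of lens and ciliary body, a list with 3 of 10 genes under a median of 1 CPM, were at 54.5 to 221 CPM at 1 h, 123 to 284 CPM at 3 h, 64.7 to 85.5 CPM at 9 h and 59.4 to 144 CPM at 16 h. The mouse with most Dkk3 at 1 h and at 3 h was also the one with most of these markers. At 9 h the mouse with most Dkk3 had the least of them, and at 16 h the mouse with most of them had the least Dkk3. Their part in the Dkk3 result was not tested.

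Sfrp1, which binds Wnts and Frizzled receptors, had the smallest ratio of highest to lowest time mean of the 3 antagonists. It was measured at 386, 359 and 409 CPM at 1 h, at 439, 403 and 443 CPM at 3 h, at 325, 360 and 371 CPM at 9 h and at 410, 386 and 409 CPM at 16 h. The highest time mean, at 3 h (428 CPM), was 1.22 times the lowest, at 9 h (352 CPM), in the 22 libraries. It passed the F test there (adjusted p = 0.0241), and not with all 24 libraries (adjusted p = 1), without a filter on low counts, or when mouse 1 or mouse 3 of 3 h, or else mouse 1 of 9 h, was left out (up to 0.115). Mouse 3 of 6 h (228 CPM) and mouse 3 of 15 h (233 CPM) had the lowest values in the series, below every other mouse. The differences of 9 h from 1 h (-0.13 on the log2 scale, adjusted p = 0.347 in 22 libraries and 1 in 24) and of 16 h (0.05, adjusted p = 0.591 and 0.971) did not pass. Per length, the antagonists exceeded the other members, with medians of 146 CPM per kb for Dkk3, 105 CPM per kb for Sfrp5 and 91.5 CPM per kb for Sfrp1.

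Of the target genes, Lef1, the DNA-binding partner of beta-catenin, was lower at 16 h in the 22 libraries. It was scarce, with 24 to 92 reads in a library, and was measured at 3.01, 3.03 and 3.09 CPM at 1 h, at 4.89, 4.23 and 3.34 CPM at 3 h, at 5.75, 3.38 and 3.12 CPM at 9 h and at 1.76, 2.52 and 2.17 CPM at 16 h. All mice of 16 h lay below all mice of 1, 3 and 9 h. The difference was -0.79 on the log2 scale (SE 0.215, adjusted p = 0.02 in 22 libraries and 0.218 in 24), and was lost without mouse 1 or mouse 3 of 16 h (adjusted p up to 0.124). All mice at 9 h lay above all mice at 1 h, yet that difference of 0.42 did not pass (adjusted p = 0.481 in 22 libraries and 1 in 24). The F test (adjusted p = 0.0384 in 22 libraries, 0.424 in 24) kept its call in 15 of 27 alternatives. Of the 12 that lost it, 11 were the fit without a filter on low counts and those in which mouse 1 or 2 of 1, 3, 15 or 16 h was left out, and likewise mouse 1 of 9 h and also mouse 3 of 16 h (adjusted p up to 0.159). Endothelial markers, summed over 10 genes all detected, were at 364 to 489 CPM at 16 h and at 550 to 984 CPM over 1, 3 and 9 h, so those groups did not overlap either, and their part in the Lef1 result was not tested. Gm43352, on the other strand, overlaps 13.7% of the exonic bases of Lef1, whose reads cannot be separated without strand.

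Axin2, Nkd1 and Rnf43, which hold back the pathway at the destruction complex, at Dishevelled and at the Frizzled receptors, did not pass with the 24 or the 22 libraries. Of the 27 alternatives on the 22 libraries, 4 called Nkd1 in the F test: DESeq2 (adjusted p = 0.0463), no filter on low counts (0.000648), and edgeR without mouse 3 of 1 h (0.00922) or without mouse 2 of 3 h (0.0372). Nkd1 also passed in 9 h against 1 h without the filter (0.0325). Axin2 was measured at 34.9, 37.7 and 32.0 CPM at 1 h, at 38.8, 39.2 and 39.2 CPM at 3 h, at 33.8, 36.0 and 33.9 CPM at 9 h and at 43.1, 37.9 and 35.5 CPM at 16 h, with overlap between all these groups except that 3 h lay above 1 h and 9 h. At 15 h it was at 47.6 and 47.1 CPM in 2 mice, the highest values of the series, and at 10.9 CPM in mouse 3, the lowest. The 15 h mean was thus 1.30 times that of the other times in 22 libraries and 0.976 times in 24, so the direction turned with 1 library. Nkd1 was highest at 1 h (42.2, 54.2 and 32.4 CPM), with a difference of 9 h from 1 h of -0.37 on the log2 scale (SE 0.148, adjusted p = 0.251 in 22 libraries, 0.906 in 24). Rnf43 ran from 12.0 to 19.5 CPM over the 22 libraries, with its time means between 13.6 CPM at 9 h and 18.2 CPM at 15 h (F test adjusted p = 0.87 in 22 libraries and 1 in 24). Gm11670, on the other strand, overlaps 3.8% of the exonic bases of Axin2.

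Over the 10 members, none passed any of the 3 tests with all 24 libraries. In the F test, 9 h against 1 h and 16 h against the light phase, 5, 3 and 3 members had an unadjusted p under 0.05, as did 8.09%, 5.37% and 9.88% of all genes. After adjustment, of all genes 0.426%, 0.0332% (all lower, 0% higher) and 0.498% (0.293% higher, 0.205% lower) were called. DESeq2 called Dkk3 and Rspo2 in the F test on the 24 libraries, beside 462 of all 18065 genes. limma-voom called no member, beside 85 of all genes. In the 22 libraries 5 of the 10 passed the F test (Rspo2, Sfrp1, Sfrp5, Dkk3 and Lef1), against 9.72% of all 18388 genes tested. In 9 h against 1 h 1 member passed, Rspo2, which was lower, against 1.78% of all genes in either direction, 1.02% lower and 0.767% higher. At 16 h 3 members passed, Rspo2 and Sfrp5 higher and Lef1 lower, against 9.76% of all genes, 5.25% higher and 4.51% lower. A fit of the 12 libraries of 1, 3, 9 and 16 h alone called Rspo2 in the F test (adjusted p = 0.0136), beside 1370 of all genes. At 16 h that fit called Rspo2, Sfrp5 and Lef1 (adjusted p = 0.0192, 0.0439 and 0.0426), beside 1597 of all genes. The median log2 difference over the members was -0.10 at 9 h against 1 h and 0.08 at 16 h in the 22 libraries, beside -2e-04 and -0.01 over all genes. The contrasts share the libraries of 1 and 9 h. The share of all genes whose mice did not overlap between these times was not counted. Lack of overlap, here and in the other pathway genes, therefore describes the values only. The members were picked with these data in view, so the shares describe the members and support nothing.

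**Figure D2:**
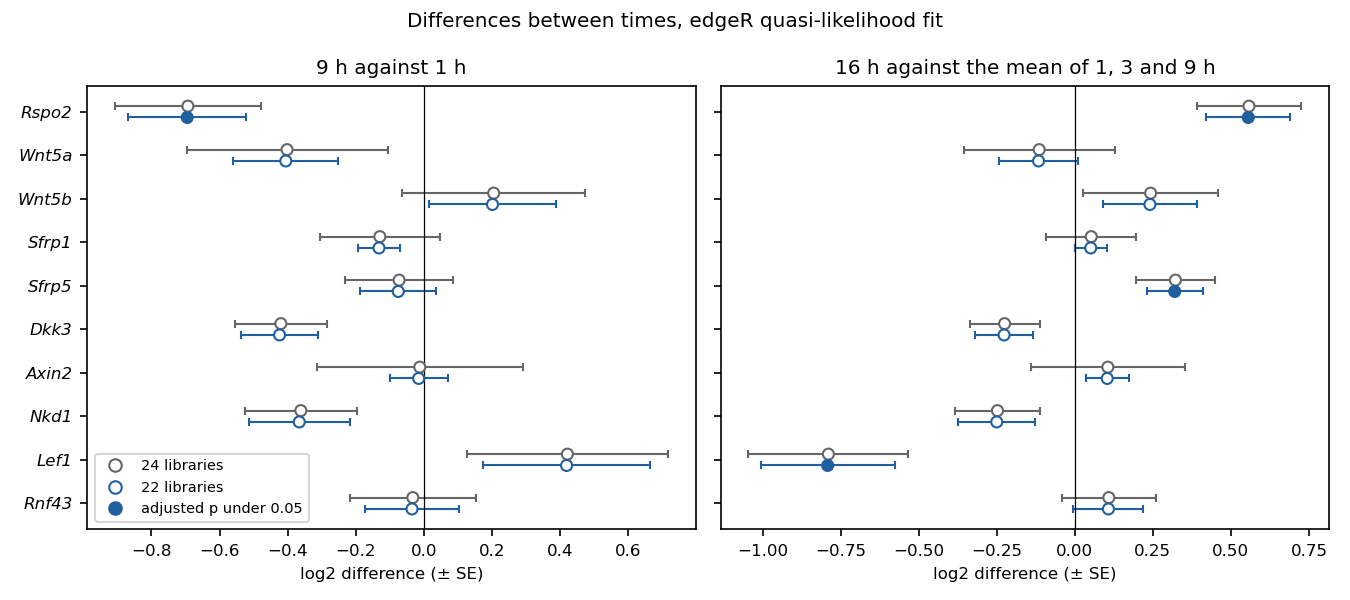
Log2 difference ± SE of each member for 9 h against 1 h and for 16 h against the mean of 1, 3 and 9 h, from all 24 libraries (grey) and from 22 (blue); filled points passed an adjusted p of 0.05. The points of the 2 sets of libraries nearly coincide and the bars are narrower with 22, where Rspo2, Sfrp5 and Lef1 passed at 16 h.

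The libraries that stood apart held member levels that ran in different directions. In mouse 3 of 15 h, relative to the mean of mice 1 and 2, the log2 ratio was 1.00 for Wnt5b and 0.62 for Sfrp5, the 2 shortest of the genes, and -2.12 for Axin2 and -1.83 for Wnt5a. The others lay between, from -0.10 for Nkd1 to -0.73 for Rspo2. Across the 10 members, Spearman's rho of the ratio with gene length was -0.673 at 15 h and -0.115 at 6 h, a description over 10 genes. In mouse 3 of 6 h the ratio was highest for Lef1 (0.99) and lowest for Sfrp1 (-0.83). Whether gene length or another property of these libraries plays a part in the Wnt5b values was not tested.

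**Figure D3:**
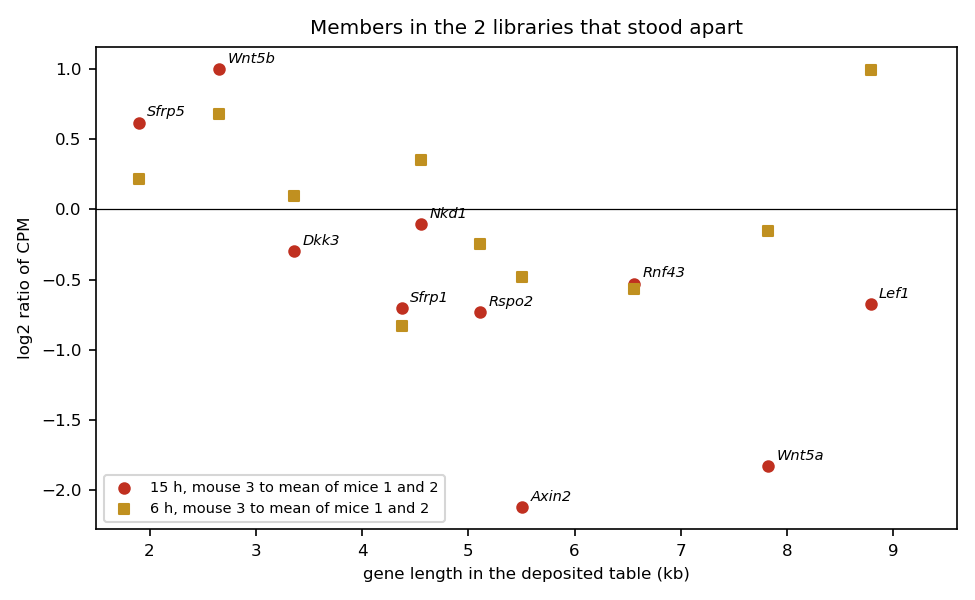
Log2 ratio of mouse 3 to the mean of mice 1 and 2 at 15 h and at 6 h against gene length in kb, for the 10 members. Sfrp5 and Wnt5b, the shortest, lay above 0 at both times, and Axin2 was lowest at 15 h (-2.12).

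The wider pathway was read from 108 genes listed by role, the 10 members included, of which 99 were tested in 24 libraries and 100 in 22. Wnt1, Wnt3a, Wnt7a, Wnt8a, Wnt9b, Rspo4, Dkk1, Dkk4 and Kremen2 were too low to be tested in 24 libraries. With 24 libraries none passed the edgeR tests. An unadjusted p under 0.05 was found for 17, 7 and 15 of the 99 in the 3 tests (8.09%, 5.37% and 9.88% of all genes). DESeq2 and limma-voom were read only for the 10 members and the 12 genes described next. Of these DESeq2 called 7, 1 and 3, beside 462, 71 and 390 of all 18065 genes, and limma-voom called none. In the 22 libraries 22 of 100 passed the F test (9.72% of all genes), with 2 of 14 ligands, 2 of 8 R-spondin genes and their receptors, 2 of 16 Wnt receptors, 6 of 15 antagonists, 5 of 14 nuclear factors and 4 of 15 beta-catenin targets among them. The ligands and Wnt receptors, at 14.3% and 12.5%, lay near the share of all genes. So did the cytoplasmic components (2 of 17, 11.8%) and the planar polarity genes (1 of 9, 11.1%). Of the ligand secretion genes 0 of 2 passed. At 16 h 8 of the 100 were higher and 10 lower (5.25% and 4.51% of all genes). At 9 h against 1 h 1 was higher and 1 lower (0.767% and 1.02% of all genes). Among the called genes were the members Rspo2, Sfrp1, Sfrp5, Dkk3 and Lef1, picked with these data in view. All gene lists were likewise chosen with earlier results known, so these shares describe the lists and support nothing. Besides the members, 21 pathway genes were called in some test in either set of libraries. Only the 12 with the smallest p of the F test in 22 libraries are described next. They were picked by these same tests, and passed no edgeR test with all 24 libraries. Their adjusted p there ran from 0.0864 to 1 in the F test, from 0.131 to 1 in 9 h against 1 h and from 0.0626 to 0.868 at 16 h. The lists overlap where a gene has more than one role. Summed endothelial markers at 16 h (364 to 489 CPM) lay below those of 1, 3 and 9 h (550 to 984 CPM). Their part in the 16 h differences of the pathway genes was not tested.

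Of the ligands, Wnt11 and Wnt6 were lower at 16 h in the 22 libraries. Wnt11, which acts in planar polarity, was measured at 1.82, 1.89 and 2.24 CPM at 16 h and at 2.13 to 6.18 CPM over 1, 3 and 9 h. Its difference was -1.03 on the log2 scale (SE 0.213, adjusted p = 0.00314). Wnt6 was at 2.07, 1.49 and 1.30 CPM at 16 h and at 1.88 to 5.66 CPM over the light-phase times, a difference of -1.17 (SE 0.272, adjusted p = 0.00771), lost without mouse 3 of 16 h (adjusted p = 0.0781). Both sets of values overlapped the light phase at 9 h. Wnt11 and Wnt6 were about as scarce as Lef1, which limits their precision. The medians over the 22 libraries were 3.06, 2.97 and 3.075 CPM for Wnt11, Wnt6 and Lef1. The Frizzled receptor Fzd8 was higher at 16 h, at 181, 182 and 172 CPM against 95.7 to 175 CPM over the light-phase times, which it overlapped, a difference of 0.50 (SE 0.0732, adjusted p = 0.000118).

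Among antagonists, Dkk2, which binds Lrp co-receptors, rose from 1 h to 9 h in the 22 libraries. It was measured at 25.7, 23.6 and 24.9 CPM at 1 h and at 33.4, 52.7 and 46.9 CPM at 9 h, with no overlap, and the difference was 0.84 on the log2 scale (SE 0.156, adjusted p = 0.00493), kept in all 27 alternatives. Sostdc1, a secreted inhibitor of Wnt and BMP signals, was higher at 16 h by 0.28 (SE 0.0711, adjusted p = 0.0124, lost without mouse 3 of 16 h, adjusted p = 0.107). Bambi, not counted among the antagonists above, is a pseudoreceptor of the TGF-beta family that is also a beta-catenin target. It was lower at 16 h by 0.61 (SE 0.149, adjusted p = 0.0105, lost without mouse 1 or mouse 2 of 16 h, up to 0.0854). Kremen1, a Dkk receptor, passed the F test (adjusted p = 0.00653) and neither difference.

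Of the nuclear and cytoplasmic genes, the Groucho corepressor Tle2 was lower at 16 h, at 22.5, 24.4 and 22.1 CPM against 27.4 to 42.2 CPM over 1, 3 and 9 h, without overlap (difference -0.62 on the log2 scale, SE 0.11, adjusted p = 0.000837 in 22 libraries). Tle4, of the same family, was higher by 0.19 (SE 0.05, adjusted p = 0.0181, lost without a filter and without mouse 1 or mouse 3 of 16 h, up to 0.109), and Dvl3, a Dishevelled scaffold, by 0.32 (SE 0.0662, adjusted p = 0.00326). Of the Wnt receptors, Ptk7, a planar polarity co-receptor, was lower at 16 h by 0.46 (SE 0.125, adjusted p = 0.0186). That call was lost without mouse 1 or mouse 3 of 16 h (up to 0.13). Tle3, a nuclear gene of the family of Tle2, passed only the F test (adjusted p = 0.0228), and lost it without any one mouse of 1 h (up to 0.111).

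The genes most like Rspo2 and Wnt5b in their pattern were ranked by Pearson's correlation of log2(CPM + 1) over the 22 libraries among 15392 genes, as a description, since the libraries share times of day. For Rspo2 they were Arhgap10 (r = 0.895), Crybg1 (0.874), Las1l (0.872), 6430548M08Rik (0.864) and Fam184b (0.859), and over the 24 libraries the values were 0.627, 0.86, 0.52, 0.81 and 0.828. For Wnt5b they included Hebp1 (0.837), Urm1 (0.762), Cep83os (0.755) and Rela (0.748), and over the 24 libraries the values of these were 0.912, 0.865, 0.121 and 0.836. With the libraries that stood apart, Cep83os thus no longer followed Wnt5b.

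The rest of the pathway around these members also differed in level per length. Of the R-spondins, Rspo2 (2.24 CPM per kb) exceeded Rspo3 (1.28) and Rspo1 (0.661) in the 22 libraries, and Rspo4 had a median of 0. Lgr4 was the main R-spondin receptor by level, at 12.2 CPM per kb against 0.185 for Lgr5, and the ligases Rnf43 and Znrf3 were at 2.33 and 1.76 CPM per kb. Of the target genes, Nkd1 and Axin2 were alike at 6.70 and 6.69 CPM per kb, and Lef1 was at 0.350 CPM per kb.

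In GRCm38 coordinates with GENCODE vM21, counted from 1, Rspo2 (ENSMUSG00000051920) lies on chromosome 15 at 43020794 to 43170826, Wnt5a (ENSMUSG00000021994) on chromosome 14 at 28504750 to 28527448, Wnt5b (ENSMUSG00000030170) on chromosome 6 at 119432531 to 119544347 and Axin2 (ENSMUSG00000000142) on chromosome 11 at 108920349 to 108950783. Nkd1 (ENSMUSG00000031661) lies on chromosome 8 at 88521354 to 88594884, Sfrp1 (ENSMUSG00000031548) on chromosome 8 at 23411502 to 23449632 and Sfrp5 (ENSMUSG00000018822) on chromosome 19 at 42197971 to 42202252. Dkk3 (ENSMUSG00000030772) lies on chromosome 7 at 112116017 to 112159057, Lef1 (ENSMUSG00000027985) on chromosome 3 at 131110471 to 131224356 and Rnf43 (ENSMUSG00000034177) on chromosome 11 at 87662722 to 87735539. The counts cover the exons of each gene, and 7 of the 10 share no exonic base with another annotated gene.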

How the data were processed

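Per the labels' protocols, RNA was extracted with a micro total RNA kit and libraries were made from 1 µg with a NEBNext Ultra RNA kit, which does not mark strand. The authors deposited 1 table of whole-number read counts by gene, not normalized, with a column for each of 24 mice. STAR, HTSeq and mm10 are named, without versions or roles, in the submitters' processing notes. Filters and the annotation release are not given in the sources used here. That table also holds the authors' gene lengths, used for CPM per kb.

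The filterByExpr filter (minimum count 10) retained 18065 genes with 99.92% of the counts. Levels are CPM with TMM scaling. A model with a mean per time was fitted with edgeR 4.0.16 (robust quasi-likelihood) in R 4.3.3, with Benjamini-Hochberg adjustment across every tested gene, and an adjusted p under 0.05 passed. Tests used 1, 3, 9 and 16 h, the times that the rule choosing the members had not named. They were an F test over the 4 times, 9 h against 1 h, and 16 h against the mean of 1, 3 and 9 h. The 12 other named pathway genes were chosen by these same tests, so their p-values describe them and support nothing. The fit was repeated without mouse 3 of 6 h and mouse 3 of 15 h, which filtered anew left 18388 genes. Fits with DESeq2 1.42.0, limma-voom (limma 3.58.1), RLE size factors, no filter, the 12 libraries of the tested times alone, the animal number as a term, and each library left out were the alternatives; repeating these on the 22 libraries was chosen after seeing the data. The scripts were tested on simulated data. No 2 of 276 library pairs agreed within sampling noise (lowest chi-square per degree of freedom 6.08).

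Named genes were the 10 members, the other pathway genes called in any test in either set of libraries (at most 12, by the p of the F test in 22 libraries), and for Rspo2 and Wnt5b the 5 genes with the most similar pattern (mean of at least 1 CPM), of which 1 is not reported here. The members and all gene lists were chosen with earlier results of these data known.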

Additional observations from a re-analysis of the deposited data

How the results depend on the processing

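Over all genes, the edgeR test on 24 libraries called 77 genes in the F test over 1, 3, 9 and 16 h, 6 in 9 h against 1 h (all lower) and 90 in 16 h against the light phase (53 higher, 37 lower). Without mouse 3 of 6 h and mouse 3 of 15 h the counts were 1787, 328 (141 higher, 187 lower) and 1795, and these held all of the 77, 6 and 90. The 12 libraries of the tested times alone gave 1370, 256 (128 in each direction) and 1597, and DESeq2 gave 462, 71 (31 higher, 40 lower) and 390 (185 higher, 205 lower). Without the filter the F test called 49 and the 16 h contrast 57, and limma-voom called 11 in 9 h against 1 h (2 higher, 9 lower). Leaving out 1 library gave 25 to 637, 1 to 111 and 14 to 680 genes. The highest counts came without mouse 3 of 15 h, and the lowest without mouse 3 of 16 h, except that 9 h against 1 h was lowest, at 1, without mouse 3 of 1 h and without mouse 1 or 3 of 9 h. In the 22 libraries these ranges were 1039 to 2068, 180 to 403 and 526 to 2155. There DESeq2 called 2701, 631 and 2300 genes (1262 higher, 1038 lower at 16 h), and no filter 3219, 1050 and 2312 (997 higher, 1315 lower at 16 h, against 966 and 829 with it). With a replicate block the 24 libraries gave 63, 8 and 68, and in the 22 libraries Lef1 missed the F test with the replicate block (adjusted p = 0.0537). The animal numbers share only a number: correlations of same-numbered pairs ran from -0.38 to 0.631 with a median of 0.0158, and 11 of 24 libraries correlated best with their own number. Small differences of 9 h from 1 h turned sign when 1 library was left out, with ranges over these fits of -0.0696 to 0.0496 for Axin2 (-0.0821 to 0.0499 in 22 libraries), -0.124 to 0.0521 for Rnf43 (-0.136 to 0.0386 in 22 libraries), -0.154 to 0.0725 for Sfrp5 (-0.165 to 0.0607 in 22 libraries) and -0.164 to 0.0746 for Tle2 (-0.177 to 0.0637 in 22 libraries). Along with those larger counts, the 22 libraries without the filter also called Wnt5a and Nkd1 in the F test (adjusted p = 0.0133 and 0.000648) and in 9 h against 1 h (0.00804 and 0.0325), and Dkk3 in 9 h against 1 h (3.26e-05) and at 16 h (0.0154). The causes were not tested. Lef1 had 24 to 92 reads a library, which limits its precision.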
